A study of Rattus norvegicus with 2 samples.

Results

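The cells described here were microglia of the female rat hypothalamus that carried much RNA of *Ccl3*, *Ccl4* and *Il1b*. They were selected on these values. A cell barcode with at least 200 detected genes was taken as a microglial cell when at least 3 of *Tmem119*, *P2ry12*, *Cx3cr1*, *Csf1r*, *C1qa* and *Aif1* were detected, with fewer than 2 of the macrophage genes *Mrc1*, *Cd163*, *Lyve1* and *F13a1* and fewer than 2 of *Snap25*, *Mog*, *Cldn5* and *Gja1*. Of these cells, those with *Ccl3*, *Ccl4* and *Il1b* summing to 10 or more unique molecular identifiers (UMIs, tags that mark each captured RNA molecule once) per 10000 UMIs of the cell became members. The rule found 324 members among 512 microglia in Control and 324 among 499 in SC300, 648 of 1011 microglia and of 8675 kept cells. The remaining 188 Control and 175 SC300 microglia are called low microglia. The deposited tables share 9 cell barcodes between the libraries, and none of them was a member's in both.

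Hypothalamic tissue that held the AVPV and the ARC was taken from Sprague Dawley female rats at PND 29 (4 weeks), dissociated with collagenase and captured in droplets for 3′ RNA sequencing. In the SC300 group, capsules of silicone that released estradiol benzoate (EB, an ester of estradiol; 300 µg) were placed at PND 0.5 and stayed in place. Control rats are intact in the labels, while the methods give them an oil capsule. Each group is a single library from the pooled tissue of 3 rats, so no test between Control and SC300 was possible and no variation between rats was measured. All intervals below are exact 95% intervals that cover counting error only. All cells passed through dissociation, and RNA present in the living tissue and RNA made during dissociation cannot be told apart.

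Microglia are the resident macrophages of the brain. *Ccl3* and *Ccl4* encode secreted chemokines that attract leukocytes, and *Il1b* encodes the precursor of interleukin 1β, which caspase 1 cuts within inflammasomes. In macrophages these genes are transcribed within minutes to hours of a stimulus through NF-κB, a transcription factor held in the cytoplasm by IκB proteins, together with immediate-early factors such as AP-1. Genes for IκB proteins and phosphatases are induced along with them and act as feedback inhibitors.

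*Sall1*, a transcription factor typical of microglia, was at 286 CPM in Control and 259 CPM in SC300, where CPM stands for UMIs per 1000000 UMIs summed over the members. It was detected in 89.2% of the Control members and 85.8% of the SC300 members. All 6 microglia markers of the rule were detected together in 284 Control and 273 SC300 members. The rule required 3 of these 6, so among the microglial genes given here *Sall1* bears on the identity of the cells without having been used to choose them. Of the macrophage genes that the rule limited, *Cd163* and *F13a1* had no UMI in the members. *Lyve1* was detected in 186 Control and 202 SC300 members and *Mrc1* in 1 and 3. The 7 border-associated macrophage genes summed to 257 CPM in the Control and 245 CPM in the SC300 members, with *Lyve1* the most abundant. In the cells with 2 or more of the macrophage genes of the rule, they summed to 8721 CPM in 15 Control and 8558 CPM in 44 SC300 cells. The 7 genes include the 4 of the rule, which had to be few in the members and present in these cells. The contrast was thus shaped by the selection and is a description only. Monocyte and granulocyte genes summed to 0 CPM in Control and 4.18 CPM in SC300, with *S100a8*, *S100a9* and *Mmp8* at 0, and lymphocyte genes to 2.19 and 1.05 CPM, with *Cd3e*, *Cd3d*, *Gzma* and *Ms4a1* at 0.

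The summed score of the 3 genes ranged from 10.0 to 594 UMIs per 10000 in the Control members, with a median of 92.2. In the SC300 members it ranged from 10.5 to 512, with a median of 96.7. These values chose the members and are given as a description. The limit cut a continuous range. In Control the member nearest to the limit had a score of 10.0 and the low microglial cell nearest to it a score of 9.80, and in SC300 these scores were 10.5 and 9.75. Between scores of 5 and 10 there were 22 Control and 21 SC300 microglia, and between 10 and 20 there were 28 and 33. No UMI of the 3 genes was found in 132 Control and 115 SC300 microglia, which had a median of 2707.5 and 3142 UMIs per cell, against 8502 in the Control and 8839.5 in the SC300 members.

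**Figure D1:**
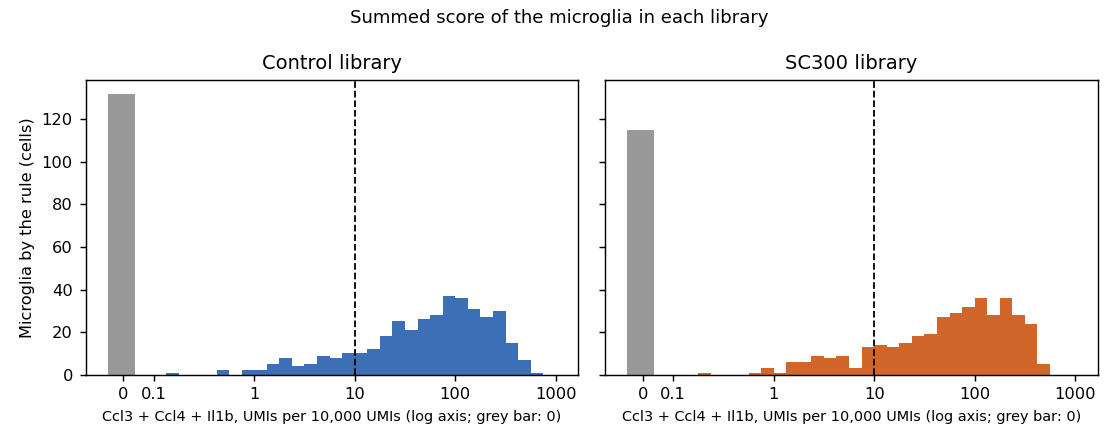
Number of microglia (y axis) by the summed UMIs of *Ccl3*, *Ccl4* and *Il1b* per 10000 UMIs of the cell (x axis, log scale), for the Control and the SC300 library. The grey bar holds the cells with none of the 3 genes (132 in Control, 115 in SC300), and the dashed line marks the limit of 10, which passes through a continuous range of scores.

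The 3 genes were not spread alike over the members. *Ccl4* was at 6409 CPM in Control and 6988 CPM in SC300, *Ccl3* at 4537 CPM in Control and 4579.5 CPM in SC300 and *Il1b* at 2451 CPM in Control and 2376 CPM in SC300 in the members. All 3 were detected in 205 Control and 201 SC300 members, and only 1 of them in 22 and 25. *Ccl4* had the most UMIs of the 3 in 174 Control and 188 SC300 members, *Ccl3* in 88 and 92, and *Il1b* in 53 and 38. The 32 members with the most UMIs of the 3 genes held 31.2% of these UMIs in Control and 29.6% in SC300. Spearman's rho among the 3 genes is a description of cells that were chosen by their sum and whose UMIs share the depth of the cell. Over the 324 members of a library it was 0.71 in Control and 0.66 in SC300 for *Ccl3* with *Ccl4*, 0.22 and 0.30 for *Ccl3* with *Il1b*, and 0.28 and 0.46 for *Ccl4* with *Il1b*.

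Free RNA in the droplets was gauged by the UMIs of these genes in cells of other types. Those cells were chosen by marker genes, so cells with much free microglial RNA could have been left out. The shares in them may therefore be too low. Each cell was thinned to 2000 UMIs, which left out 6 Control and 11 SC300 members and 59 Control and 42 SC300 low microglia. *Ccl3* was then detected in 84.9% of the Control members and 87.9% of the SC300 members (92.0% and 92.3% before thinning). Mature oligodendrocytes should lack the gene and had a median of 18985 UMIs per cell in Control and 20302 in SC300. *Ccl3* was detected in 1.34% and 0.427% of them after thinning, and in 5.71% and 4.69% before. For *Il1b* the thinned shares were 64.5% of the Control members and 61.7% of the SC300 members, and 0.267% and 0.214% of the oligodendrocytes. A score of 10 or more was reached by 0 of 385 Control and 0 of 469 SC300 oligodendrocytes, by 0 of 1363 and 1 of 1421 astrocytes, and by 1 of 354 and 0 of 246 endothelial cells. Of the cells with macrophage genes it was reached by 5 of 15 in Control and 25 of 44 in SC300.

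Members and low microglia of the same library were compared gene by gene as the log2 ratio of CPM. The rule used the cells of this contrast, so the ratios are a description with no test. A gene high in the members could pass the filter on UMIs through them alone, and this also bears on the counts by list below. The low microglia held 1008285 UMIs in Control and 1008598 UMIs in SC300, so their CPM values are close to their UMI counts. Among 3878 genes with at least 100 UMIs in each library, 342 (8.82%) were over 1.5-fold higher in the Control members and 368 (9.49%) in the SC300 members, and 499 (12.9%) and 470 (12.1%) were over 1.5-fold lower. With every cell weighted alike 272 genes were lower in Control and 280 in SC300, and without doublet calls 311 in SC300. In both libraries, with UMIs summed, 207 genes were higher and 299 lower. The low microglia were shallower, at a median depth of 3664 UMIs in Control and 4458 UMIs in SC300, and the part of depth in these ratios was not tested. Thinned to 2000 UMIs, the members had a median of 909 detected genes in Control and 884 in SC300 and the low microglia 936 and 899. The genes with the highest ratios, by the less extreme library, were *Ccl4*, *Il1b*, *Ccl3*, *Ccl2*, *Nr4a1*, *Ccl7*, *Atf3*, *Nfkbiz*, *Csrnp1*, *Egr2*, *AC111804.2*, *Nr4a2*, *Cxcl2*, *Icam1* and *Cxcl10*. Except for *AC111804.2*, whose function the files do not name, these encode secreted chemokines and cytokines, nuclear proteins and an adhesion molecule. The nuclear proteins include transcription regulators of the immediate-early and NF-κB response.

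Chemokine genes beyond *Ccl3* and *Ccl4* were at low levels in the low microglia. *Ccl2*, whose product attracts monocytes through CCR2, was at 1497 CPM in Control and 1928 CPM in SC300 in the members and at 34.7 and 31.7 CPM in the low microglia. It was detected in 51.9% of the Control members and 53.1% of the SC300 members, with no UMI found in the rest. *Ccl7*, a second ligand of CCR2, was at 146 CPM in Control and 196 CPM in SC300 and came from few cells, 8.02% and 11.1% of the members. *Cxcl2*, which attracts neutrophils through CXCR2, was at 620.1 CPM in Control and 491 CPM in SC300 in the members and at 80.3 and 19.8 CPM in the low microglia. The low microglia held few UMIs of these genes, 35 in Control and 32 in SC300 of *Ccl2*, 12 and 4 of *Ccl7* and 81 and 20 of *Cxcl2*, so they passed the filter through the members and their ratios rest on small counts. *Cxcl10*, with 24 and 1 UMIs in the low microglia, had 77.0% of its Control UMIs in 3 members. *Ccl6* had log2 ratios of 0.11 in Control and 0.96 in SC300. *Ccl24* was at 0 in all members. The cells with 2 or more macrophage genes, 15 in Control and 44 in SC300, had *Ccl2* at 3791 and 4947 CPM, *Ccl7* at 3604 and 3987 CPM, *Cxcl2* at 2344 and 1969.5 CPM and *Cxcl10* at 0 and 10.2 CPM.

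Among cytokine genes, *Tnf*, which encodes tumour necrosis factor, was at 153 CPM in Control and 145 CPM in SC300 in the members and at 33.7 and 4.96 CPM in the low microglia. The levels in the low microglia rest on few UMIs. *Osm*, which encodes oncostatin M of the interleukin 6 family, was at 74.5 CPM in Control and 103 CPM in SC300, with log2 ratios over low microglia of 2.23 in Control and 2.61 in SC300. *Il1a*, a second agonist of the interleukin 1 receptor, was at 30.7 CPM in Control and 47.4 CPM in SC300 and was listed with 1 and 4 UMIs in the low microglia. The anti-inflammatory *Il10* had 0 UMIs in the Control and 1 UMI in the SC300 members, and *Il1rn*, which encodes the receptor antagonist of interleukin 1, had 0 and 3. The growth factor genes *Tgfb1* and *Igf1* had lower ratios than *Tnf* and *Osm*. *Tgfb1* was at 343 CPM in Control and 343 CPM in SC300 and had log2 ratios of 0.33 in Control and 0.45 in SC300, and *Igf1* had log2 ratios of 0.80 in Control and 0.85 in SC300. *Il1b* aside, whose ratio the rule fixed, 4 of 6 genes of this list with enough UMIs were over 1.5-fold higher in the Control and 5 of 6 in the SC300 members, beside 8.82% and 9.49% of all genes. Without the cells with over 1% RNA of other types, described below, *Il18*, an inflammasome cytokine, no longer passed in SC300, with a log2 ratio of 0.40. In that setting the growth factor gene *Pdgfb* had log2 ratios of 1.88 in Control and 1.28 in SC300, and *Pdgfa* of −0.42 and −0.69.

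The list of NF-κB targets and feedback inhibitors had 12 genes with enough UMIs. Of these, 11 were over 1.5-fold higher in the members in Control and 10 in SC300, beside 8.82% and 9.49% of all genes. The medians were 2.11 and 2.79. *Cd83*, a surface protein of the immunoglobulin superfamily found on activated antigen-presenting cells, was at 2738 CPM in Control and 2359 CPM in SC300 in the members and at 412 and 184 CPM in the low microglia, and was detected in 93.5% of the Control members and 91.4% of the SC300 members. *Nfkbia* encodes IκBα, which holds NF-κB in the cytoplasm. It was at 1837 CPM in Control and 1587 CPM in SC300 in the members and at 351 and 129.9 CPM in the low microglia. *Nfkbiz*, a nuclear IκB protein, had log2 ratios of 3.52 in Control and 4.52 in SC300, and *Icam1*, an adhesion molecule, of 2.99 in Control and 2.95 in SC300. In the low microglia *Nfkbiz* was at 25.8 and 12.9 CPM and *Icam1* at 42.6 and 35.7 CPM, so these ratios rest on small counts. Such genes could pass the filter through the members alone. Among subunit genes of NF-κB, *Rel*, which encodes c-Rel, had log2 ratios of 2.24 in Control and 2.94 in SC300, and *Nfkb1* had lower ones of 0.67 in Control and 0.29 in SC300. *Sod2*, the mitochondrial superoxide dismutase, was not higher in the members, with log2 ratios of −0.43 in Control and 0.047 in SC300.

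Promoters of genes with high ratios are shown to place the motifs of the factors named above. Sequences are from RefSeq (GRCr8), run 5′ to 3′ on the strand of the gene from 250 bases before to 50 bases after its start, and have capitals at every match on either strand to the NF-κB consensus, TATAAA, the CArG box (the site of serum response factor) or TGACGTCA (the cAMP response element). *Cd83* (chr17:21112628-21112927, minus strand) held NF-κB matches in 2 stretches, and *Nfkbia* (chr6:78597023-78597322, minus strand) held 1 NF-κB match and 1 TATAAA on the opposite strand. *Il1b* (chr3:137036532-137036831, minus strand) held 1 TATAAA and 0 NF-κB matches. The immediate-early genes *Egr2* (chr20:21054392-21054691, minus strand) and *Btg2* (chr13:48087641-48087940, minus strand) held 1 CArG box and 1 TGACGTCA, in that order.
Cd83: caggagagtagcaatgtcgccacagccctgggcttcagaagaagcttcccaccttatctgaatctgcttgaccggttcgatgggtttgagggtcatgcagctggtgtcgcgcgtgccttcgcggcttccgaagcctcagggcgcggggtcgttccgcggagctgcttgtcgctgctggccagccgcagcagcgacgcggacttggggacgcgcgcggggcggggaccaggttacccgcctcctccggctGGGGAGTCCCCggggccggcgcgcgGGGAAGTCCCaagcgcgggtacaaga
Nfkbia: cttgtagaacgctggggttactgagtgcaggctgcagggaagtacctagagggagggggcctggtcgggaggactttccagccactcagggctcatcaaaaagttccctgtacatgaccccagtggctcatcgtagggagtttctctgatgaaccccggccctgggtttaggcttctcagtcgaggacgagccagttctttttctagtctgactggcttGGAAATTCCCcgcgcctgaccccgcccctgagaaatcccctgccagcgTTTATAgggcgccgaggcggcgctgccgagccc
Il1b: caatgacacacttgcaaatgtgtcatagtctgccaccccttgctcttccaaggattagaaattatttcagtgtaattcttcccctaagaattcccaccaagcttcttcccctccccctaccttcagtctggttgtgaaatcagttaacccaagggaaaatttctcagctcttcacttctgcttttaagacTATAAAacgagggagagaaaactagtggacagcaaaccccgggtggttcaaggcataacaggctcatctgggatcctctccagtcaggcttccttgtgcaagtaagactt
Egr2: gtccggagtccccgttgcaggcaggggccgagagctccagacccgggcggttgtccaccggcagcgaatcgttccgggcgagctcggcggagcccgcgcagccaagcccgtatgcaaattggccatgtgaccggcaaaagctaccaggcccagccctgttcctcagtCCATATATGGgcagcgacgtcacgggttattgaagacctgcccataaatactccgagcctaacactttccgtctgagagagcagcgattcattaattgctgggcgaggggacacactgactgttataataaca
Btg2: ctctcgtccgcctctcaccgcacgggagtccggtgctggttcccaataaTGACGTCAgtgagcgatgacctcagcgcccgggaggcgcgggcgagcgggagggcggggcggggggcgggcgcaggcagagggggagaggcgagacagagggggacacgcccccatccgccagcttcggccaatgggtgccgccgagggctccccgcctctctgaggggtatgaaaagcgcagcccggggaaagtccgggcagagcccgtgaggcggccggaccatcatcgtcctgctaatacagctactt

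Of all 33469 promoters of this length, 7.51% held the NF-κB consensus, 14.2% TATAAA, 1.64% the CArG box and 1.83% TGACGTCA. Of the NF-κB list, 21 of 25 genes had a promoter in the table and 10 held the consensus. It was held by 5 of 10 chemokine promoters, 3 of 10 of cytokines and growth factors, 2 of 19 of immediate-early genes and 1 of 18 of microglia identity genes. The NF-κB list was made of known targets of the factor, so its count is no finding. Of 19 immediate-early promoters, 4 held the CArG box (*Egr1*, *Egr2*, *Klf6* and *Zfp36*) and 5 held TGACGTCA (*Btg2*, *Dusp1*, *Ier2*, *Jund* and *Maff*). A match marks letters only, and the binding of a factor was not measured.

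All 20 immediate-early genes with enough UMIs, of 25 in the list, were over 1.5-fold higher in the members of both libraries. Over all genes the shares were 8.82% in Control and 9.49% in SC300. The medians of the list were 2.20 in Control and 2.74 in SC300. Without the cells with over 1% RNA of other types, described below, 20 of 20 were still higher. *Id2* of the list was not among the 20 genes with enough UMIs in that setting and had log2 ratios of −0.35 in Control and 0.14 in SC300. *Fos*, a subunit of AP-1, was at 5162 CPM in Control and 4861 CPM in SC300 in the members and at 1304 and 855 CPM in the low microglia. *Egr1*, a zinc-finger factor, was at 2509 CPM in Control and 2059 CPM in SC300 in the members and at 518 and 179 CPM in the low microglia. *Nr4a1*, an orphan nuclear receptor, had log2 ratios of 3.78 in Control and 4.06 in SC300, and *Atf3*, a repressor of the ATF/CREB family, of 3.54 in Control and 4.04 in SC300. In the low microglia *Nr4a1* was at 39.7 and 29.7 CPM and *Atf3* at 22.8 and 29.7 CPM, so their ratios rest on small counts. Genes of this kind could pass the filter through the members alone. Genes of negative regulators were among them. *Dusp1*, which encodes a phosphatase of MAP kinases, had log2 ratios of 1.93 in Control and 2.57 in SC300, and *Zfp36*, which encodes tristetraprolin, a protein that destabilizes cytokine mRNA, of 2.06 in Control and 2.56 in SC300. The list summed to 32093 CPM in the Control and 29877 CPM in the SC300 members.

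Genes of microglial identity passed the fold about as often as all genes. Of 22 such genes with enough UMIs, 2 in Control and 3 in SC300 were over 1.5-fold higher in the members, beside 8.82% and 9.49% of all genes, and none was over 1.5-fold lower in either library. The medians were 0.28 and 0.41, beside −0.017 and −0.0089 over all genes. Without the cells that carried over 1% RNA of other cell types, described below, 0 and 1 were higher. *Tmem119*, a membrane protein of homeostatic microglia, was at 1208 CPM in Control and 1188 CPM in SC300 in the members and at 995 and 1018 CPM in the low microglia. *P2ry12*, a purine receptor, was at 324 CPM in Control and 301 CPM in SC300 and at 291 and 239 CPM. *Cx3cr1*, the fractalkine receptor, had log2 ratios of 0.58 in Control and 0.59 in SC300. *Trem2*, a lipid-sensing receptor, had log2 ratios of 0.24 in Control and 0.42 in SC300. Of 10 genes of the disease-associated list, none was higher and *Cd9*, a tetraspanin, was lower in both libraries, beside 12.9% and 12.1% of all genes lower. Its log2 ratios were −0.85 in Control and −1.58 in SC300, and −0.19 and −0.77 without the cells with over 1% RNA of other types. *Clec7a* had 4 UMIs in the members of each library, and *Itgax* had 0 and 2.

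Receptor, inflammasome and interferon genes differed one by one. Of 9 receptor genes with enough UMIs, 1 was over 1.5-fold higher in the Control and 5 in the SC300 members, and 1 in each without the cells with over 1% RNA of other types, which is near the 8.82% and 9.49% of all genes. *Il1r1*, the signalling receptor of interleukin 1, had 0 UMIs in the Control and 1 UMI in the SC300 members. *Nlrp3*, an inflammasome sensor, had log2 ratios over low microglia of 1.13 in Control and 1.29 in SC300, *Casp1* of 0.37 in Control and 0.13 in SC300 and *Pycard*, the adaptor, of 0.15 in Control and 0.17 in SC300. *Irf1*, a factor induced by interferons and by NF-κB, had log2 ratios of 2.26 in Control and 2.25 in SC300, while *Ifi27*, an interferon-induced gene, had 0.25 in Control and 0.23 in SC300. Of 5 interferon response genes with enough UMIs, 3 were higher in the Control and 2 in the SC300 members (medians 0.73 and 0.23). Of the complement genes, *C1qa* was at 8059.9 CPM in Control and 8320.1 CPM in SC300 in the members and at 6649 and 5923 CPM in the low microglia, with a log2 ratio of 0.28 in Control and 0.49 in SC300, and of −0.11 in Control with every cell weighted alike.

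**Figure D2:**
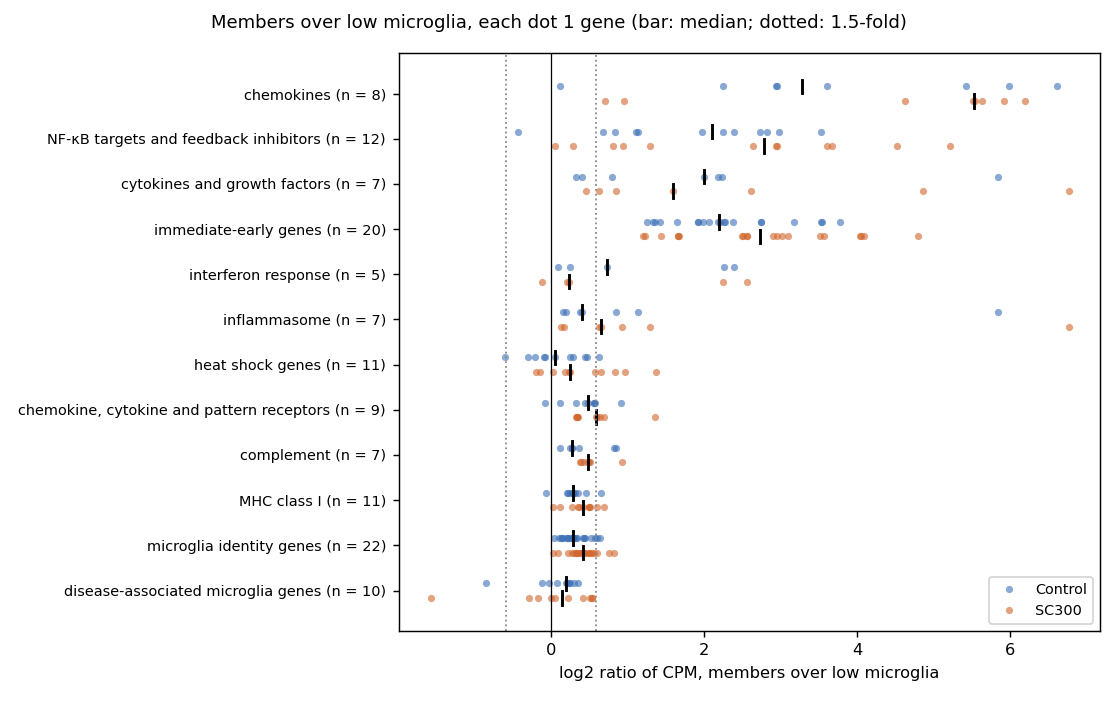
Log2 ratio of CPM of members over low microglia (x axis) for the genes of 12 lists (y axis, with the number of genes tested), each dot 1 gene in Control (blue) or SC300 (orange). Bars mark medians and dotted lines a fold of 1.5. Immediate-early genes all lie right of the dotted line, and microglia identity genes lie between 0.03 and 0.83.

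The genes with the lowest ratios were the neuronal genes *Nrgn*, *Stmn3*, *Rab3a*, *Caly*, *Tubb3*, *Ly6h*, *Snap25*, *Vsnl1* and *Gap43*, and *LOC691995*, which the files give no function. All 10 were over 1.5-fold lower in the members of both libraries. *Stmn3*, a neuronal regulator of microtubules, was at 629 and 336 CPM in the low microglia and at 20.5 CPM in Control and 16.7 CPM in SC300 in the members, and 3 cells held 71.3% of its UMIs in the Control low microglia. Haemoglobin genes summed to 20316 CPM in the Control and 19819.6 CPM in the SC300 low microglia and to 3599 and 132 CPM in the members. Cells with over 1% of their UMIs in the lists of haemoglobin, oligodendrocyte, astrocyte, endothelial and neuron genes numbered 8 of 188 Control and 13 of 175 SC300 low microglia and 6 and 3 of the 324 members. Without these cells, an alternative chosen after the values were seen, all 20 immediate-early genes were still over 1.5-fold higher in the members of both libraries, as were 11 NF-κB genes in Control and 10 in SC300.

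Within the members, genes outside the score differed along the score. In the bands of 10 to under 30, 30 to under 100 and 100 or more UMIs per 10000, which held 60, 117 and 147 Control and 55, 112 and 157 SC300 members, *Tnf* was at 52.3, 128 and 200.4 CPM in Control and at 20.8, 115 and 193 CPM in SC300. *Nfkbia* was at 825, 1683 and 2237 CPM in Control and at 281, 1062 and 2225 CPM in SC300. *Ccl2* was at 267, 1060.5 and 2156 CPM in Control and at 400.3, 1244 and 2716 CPM in SC300. These genes were highest in the top band of both libraries. *Csf1r*, the receptor of the microglial survival factors CSF1 and IL-34, was at 2739, 2601 and 2332 CPM in Control and at 2698, 2735 and 2569 CPM in SC300, lowest in the top band of both. The median depth was 6486, 7996 and 9579 UMIs per cell in the Control bands and 7375, 8171 and 10335 in the SC300 bands, and its part in these levels was not tested.

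*Hspa1b*, which encodes an inducible 70-kDa heat shock protein, had the opposite order within the members. It was at 1169, 696 and 171 CPM in the Control bands and at 1747, 1093 and 330 CPM in the SC300 bands, and was lowest in the cells with the most chemokine RNA. Microglia with a score of 0 had 505 CPM in Control and 500.4 CPM in SC300, so the level was highest in the band just above the limit. *Hspa8*, a constitutive member of the same family, was at 1637, 1584 and 1474 CPM and at 1422, 1541 and 1619 CPM. At the lower bands the libraries also stood apart. *Nfkbia* in microglia with a score of 0 and of over 0 to under 10 was at 198 and 489 CPM in Control and at 85.1 and 171 CPM in SC300, whereas in the top band it was at 2237 and 2225 CPM. Over the 324 members the rho of the score was 0.56 in Control and 0.66 in SC300 with *Cd83*, and 0.43 and 0.56 with *Nfkbia*. Markers of microglia did not share 1 direction. The rho was −0.15 and −0.22 with *Tmem119*, −0.19 and −0.11 with *Csf1r*, and −0.11 and −0.094 with *P2ry12*. With *C1qa* it was −0.026 and 0.015, and with *Cx3cr1* 0.099 and 0.064. All of these describe values that share the depth of the cell.

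**Figure D3:**
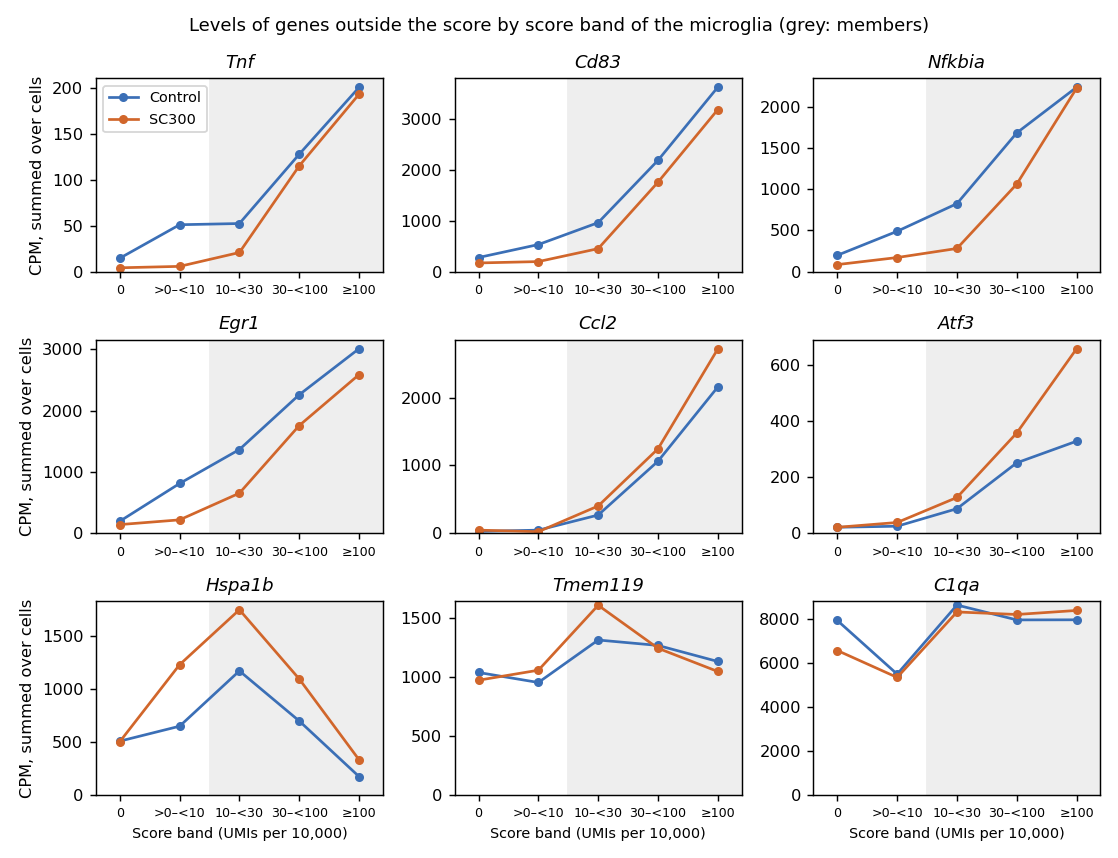
CPM (y axis) of 9 genes outside the score in microglia grouped by score band (x axis, UMIs per 10000), in Control (blue) and SC300 (orange). The grey area holds the members. *Tnf*, *Cd83*, *Nfkbia*, *Egr1*, *Ccl2* and *Atf3* are highest in the top band, and *Hspa1b* and *Tmem119* in the band of 10 to under 30. *C1qa* is lowest in the band of over 0 to under 10 in both libraries, and its highest band differs between them.

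Control and SC300 were then compared within the members. The rule did not use the group of a cell, and it used *Ccl3*, *Ccl4* and *Il1b* alike in both libraries. Members made up 63.3% of the microglia in Control (Clopper-Pearson interval 58.9 to 67.5) and 64.9% in SC300 (60.6 to 69.1), a ratio of 1.03 (0.877 to 1.20), and 7.54% and 7.40% of the kept cells, a ratio of 0.981 (0.838 to 1.15). These intervals are over the cells of 1 library each, the share rests on the score of the rule, and no difference between the groups can be tested with 1 library each. The members held 2738361 UMIs in Control and 2869309 UMIs in SC300, with a median of 6.68% and 7.98% mitochondrial UMIs per cell, whose part in the differences was not tested. Of 4989 genes with at least 100 UMIs over both libraries, 74 (1.48%) were over 1.5-fold higher in SC300 and 147 (2.95%) over 1.5-fold lower, with a median log2 ratio of −0.033. Whether any of these differences exceeds the variation between rats was not measured.

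*Ccl3*, *Ccl4* and *Il1b* were used by the rule, which held the members of both libraries to the same lowest sum, so their ratios are given as a description. The log2 ratio of SC300 over Control was 0.014 (95% interval −0.022 to 0.049) for *Ccl3*, 0.12 (95% interval 0.096 to 0.15) for *Ccl4* and −0.045 (95% interval −0.094 to 0.0036) for *Il1b*. *Ccl2* had a log2 ratio of 0.37 (95% interval 0.31 to 0.42) and *Ccl7* of 0.43 (95% interval 0.24 to 0.62). Of the UMIs of *Ccl7*, 3 members held 61.4% in Control and 42.5% in SC300, and its log2 ratio was 0.92 without the cell with the most UMIs, −0.048 without doublet calls and −0.046 without the cells with over 1% RNA of other types. Of 10 chemokine genes with enough UMIs none was over 1.5-fold higher and 2 were lower, *Cxcl10* and *Ccl6*. Over all genes 1.48% were higher and 2.95% lower. Without the cells with over 1% RNA of other types 1 chemokine gene was lower. *Cxcl10*, an interferon-induced ligand of CXCR3, had 500 UMIs in Control and 130 UMIs in SC300, of which 3 cells held 77.0% in Control. *Ccl6* had 173 UMIs in Control and 116 UMIs in SC300, with a log2 ratio of −0.64. Of 10 cytokine genes, beside the same shares of all genes, *Il1a* was higher, at 0.63 (95% interval 0.22 to 1.04), and *Il6* and *Pdgfa* were lower. *Il6*, which encodes interleukin 6, had 133 UMIs in Control and 47 UMIs in SC300, with a log2 ratio of −1.57 (95% interval −2.08 to −1.08), and was detected in 24.1% of the Control members and 10.2% of the SC300 members. In the low microglia *Il6* had 26 and 4 UMIs, with a log2 ratio of −2.70.

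Transcription regulators differed one by one, beside 1.48% of all genes over 1.5-fold higher in SC300 and 2.95% lower. Of 22 immediate-early genes with enough UMIs, *Atf3* was over 1.5-fold higher in SC300, at 266 CPM in Control and 490 CPM in SC300 and a log2 ratio of 0.88 (95% interval 0.75 to 1.01), and *Jund*, an AP-1 subunit, was over 1.5-fold lower, at 1984 CPM in Control and 1247 CPM in SC300 and a log2 ratio of −0.67 (95% interval −0.73 to −0.61). The other AP-1 genes lay nearer to 0, with log2 ratios of −0.087 for *Fos*, −0.12 for *Jun* and −0.035 for *Junb*. The median of the list was −0.13. Of 17 genes of the NF-κB list, *Cd14*, a co-receptor for lipopolysaccharide, was higher, with 36 UMIs in Control and 80 UMIs in SC300, and none was lower. *Ier3* was at 4557 CPM in Control and 5623 CPM in SC300 and *Cd83* had a log2 ratio of −0.21 (95% interval −0.26 to −0.17). *Cebpa* and *Cebpb*, factors of myeloid cells that are in no list and were picked after their values were seen, had log2 ratios of −0.97 (95% interval −1.05 to −0.88) and −0.80 (95% interval −0.90 to −0.70). Their levels were 1159 and 592 CPM for *Cebpa* and 744 and 428 CPM for *Cebpb*, lower in SC300 in both.

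*Tsc22d3* and *Fkbp5*, each known as a target of the glucocorticoid receptor, were lower in SC300. No list of such targets was scored. *Tsc22d3*, which encodes the leucine zipper protein GILZ, was at 440 CPM in Control and 130 CPM in SC300 in the members, a log2 ratio of −1.76 (95% interval −1.93 to −1.59), and was detected in 75.6% of the Control members and 50.9% of the SC300 members. *Fkbp5*, a co-chaperone of steroid receptors, had 75 UMIs in Control and 38 UMIs in SC300, with a log2 ratio of −1.05 (95% interval −1.65 to −0.47). Both stand in the list of steroid receptors and estrogen-induced genes and were its only genes with enough UMIs. Of all genes 2.95% were over 1.5-fold lower. *Tsc22d3* was higher with the score in both libraries, at 277, 393 and 520.3 CPM in the Control bands and at 101, 127 and 139 CPM in the SC300 bands, and each Control band lay above every SC300 band. In the low microglia, with 198 and 80 UMIs of *Tsc22d3* and 38 and 10 UMIs of *Fkbp5*, the log2 ratios were −1.31 and −1.93, and over all kept cells *Tsc22d3* was at 156 CPM in Control and 108 CPM in SC300. The receptors of estradiol and progesterone, *Esr1*, *Esr2* and *Pgr*, had 0 UMIs in the members of both libraries. These held 2738361 UMIs in Control and 2869309 UMIs in SC300, so a low level could have been missed. *Ch25h*, a cholesterol hydroxylase, and *Il33*, which encodes an alarmin, were picked after their values were seen. *Ch25h* was at 1333 CPM in Control and 458 CPM in SC300 and had a log2 ratio of −1.54 (95% interval −1.63 to −1.45), against −1.40 in the low microglia, and *Il33* had a log2 ratio of −0.78 (95% interval −0.91 to −0.64).

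Of 11 heat shock genes, 3 were over 1.5-fold higher in SC300, beside 1.48% of all genes, and none lower. Without the cells with over 1% RNA of other types, *Hspa1b* lay just under the fold, at a log2 ratio of 0.58, and 2 passed. *Hspa1b* was at 500.3 CPM in Control and 767 CPM in SC300, with a log2 ratio of 0.62 (95% interval 0.52 to 0.72), and was detected in 34.6% of the Control members and 48.8% of the SC300 members. *Dnajb1*, a co-chaperone of the 70-kDa proteins, had a log2 ratio of 0.66 (95% interval 0.51 to 0.81), and *Hspb1*, a small heat shock protein, of 0.69 (95% interval 0.40 to 0.99). Among constitutive chaperones the log2 ratio was 0.029 for *Hspa8*, 0.0063 for *Hsp90ab1* and −0.36 for *Hspa5*, which acts in the endoplasmic reticulum and had the lowest ratio of the list. In the low microglia the log2 ratio of *Hspa1b* was 0.60.

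Interferon response genes had the lowest median of the lists of immune genes, −0.51. Of 9 such genes 4 were over 1.5-fold lower in SC300 and none higher, beside 2.95% of all genes lower and 1.48% higher. *Ifi27* was at 478 CPM in Control and 194 CPM in SC300, with a log2 ratio of −1.30 (95% interval −1.44 to −1.15), and it was detected in 90.7% of the Control members and 65.7% of the SC300 members. Its log2 ratio in the low microglia was −1.28. The other 3 came from few cells. In Control, 3 members held 77.8% of the UMIs of *Ifit3*, 71.4% of those of *Isg15* and 53.1% of those of *Ifit2*, which are interferon-induced genes, so their ratios describe single cells. *Irf1* had a log2 ratio of −0.51 (95% interval −0.72 to −0.30), and *Stat2*, a factor of interferon signalling, of −0.14 (95% interval −0.52 to 0.24).

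Of 12 genes of MHC class I, which presents peptides on all nucleated cells, 3 were over 1.5-fold lower in SC300 and none higher. Over all genes 2.95% were lower and 1.48% higher. *RT1-A1* was at 782 CPM in Control and 29.3 CPM in SC300, with a log2 ratio of −4.74 (95% interval −5.07 to −4.42), and was detected in 96% of the Control members and 21.9% of the SC300 members. *RT1-CE4* had a log2 ratio of −0.64 (95% interval −0.73 to −0.56), while *RT1-CE10* had 0.25 (95% interval 0.19 to 0.30) and *RT1-A2* 0.34 (95% interval 0.21 to 0.47), both within 1.5-fold. *B2m*, the shared light chain, had −0.025 (95% interval −0.057 to 0.0077). RT1 genes are close copies of each other and differ between haplotypes, so their counts can be split among copies. Over all kept cells *RT1-A1* was at 104 CPM in Control and 3.78 CPM in SC300, so a difference was also found there. MHC class II genes came from few cells. In SC300, 3 members held 95.4% of the UMIs of *RT1-Da* and 80.3% of those of *Cd74*, the invariant chain.

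Few genes of any kind passed the fold between the libraries, 1.48% higher and 2.95% lower, and a list of this size with none is near that share. Of 24 microglia identity genes none was over 1.5-fold apart (median −0.030), and the log2 ratios ran from −0.28 for *Selplg*, a selectin ligand, to 0.30 for *Siglec5*, a sialic acid receptor. *Tmem119* had a log2 ratio of −0.024 (95% interval −0.093 to 0.045) and *P2ry12* of −0.11 (95% interval −0.24 to 0.031). None of 9 complement genes, of 6 purine genes, of 10 receptor genes and of 7 inflammasome genes was over 1.5-fold apart. Of 11 genes of the disease-associated list 1 was higher, *Axl*, with 44 UMIs in Control and 75 UMIs in SC300. *Apoe*, an apolipoprotein that astrocytes make in quantity, was at 4591 CPM in Control and 6372 CPM in SC300, with a log2 ratio of 0.47 (95% interval 0.44 to 0.51), and stood at 9634 CPM in Control and 9760 CPM in SC300 over all kept cells. Genes of dividing cells were rare. Members with 2 or more of these genes numbered 1 in Control and 3 in SC300.

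**Figure D4:**
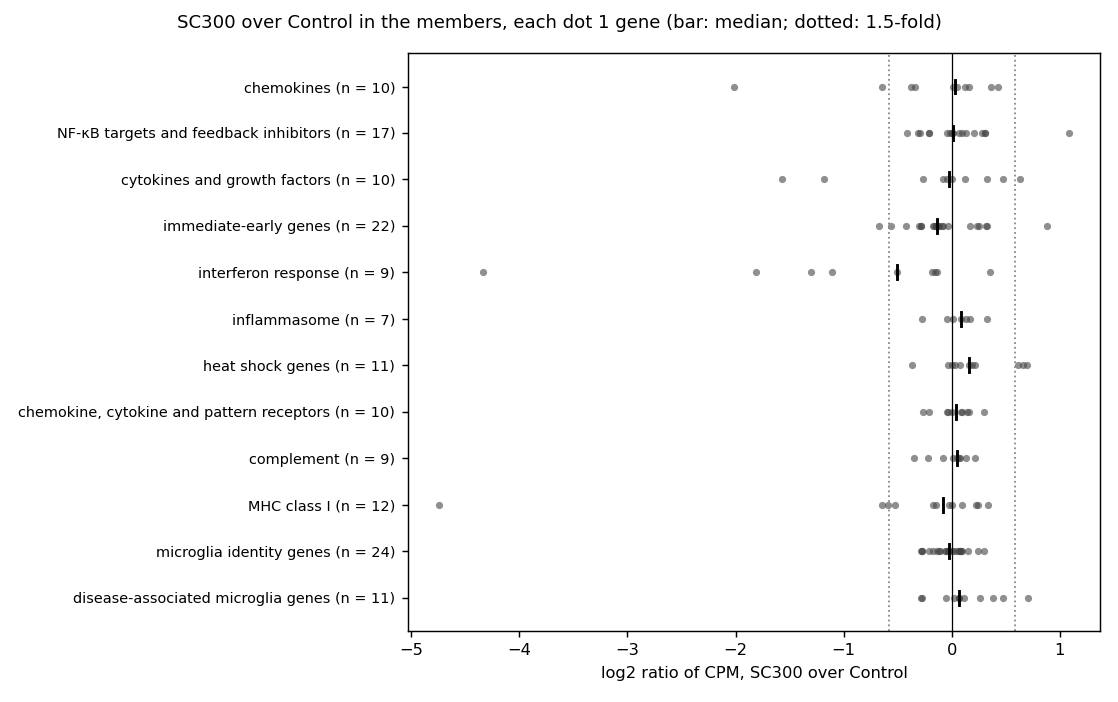
Log2 ratio of CPM of SC300 over Control in the members (x axis) for the genes of 12 lists (y axis, with the number of genes tested), each dot 1 gene. Bars mark medians and dotted lines a fold of 1.5. The 24 microglia identity genes lie between −0.28 and 0.30, and 4 of 9 interferon response genes lie left of the dotted line.

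The genes furthest apart between the libraries were of several kinds. *Fam111a*, which encodes a nuclear protease, had 2 UMIs in Control and 421 UMIs in SC300 and a log2 ratio of 7.65 (95% interval 5.79 to 10.70), and *RGD1309362* had 0 UMIs in Control and 291 UMIs in SC300, a log2 ratio of 6.53 with 0 set to 3 UMIs over the group and of at least 6.23 at the lower end of the counting interval. Both differences were found in other cells too. Over all kept cells *Fam111a* was at 0.389 CPM in Control and 39.0 CPM in SC300 and *RGD1309362* at 0 CPM in Control and 13.6 CPM in SC300. *LOC100911991* had 31 UMIs in Control and 180 UMIs in SC300 and followed them. Further genes among the 10 highest ratios were *Cybb*, *Lilrb3a*, *Aldh2*, *Nes*, *Hist1h2an*, *Oxt* and *Cldn5*. *Cybb*, a subunit of the phagocyte NADPH oxidase, was at 40.2 CPM in Control and 125 CPM in SC300, with a log2 ratio of 1.64 (95% interval 1.33 to 1.96). *Lilrb3a*, an inhibitory receptor of myeloid cells, was at 31.0 CPM in Control and 97.9 CPM in SC300, and *Aldh2*, the mitochondrial aldehyde dehydrogenase, at 29.2 CPM in Control and 98.3 CPM in SC300. *Nes* and *Hist1h2an*, which encode nestin and a histone, had log2 ratios of 1.72 and 1.44, with 57.6% of the SC300 UMIs of *Hist1h2an* in 3 members. *Oxt*, the oxytocin gene of neurons, was at 12.8 CPM in Control and 52.3 CPM in SC300 in the members and at 1531 CPM in Control and 3984 CPM in SC300 over all kept cells, higher in SC300 in both, and the part of free RNA in the level of the members was not tested.

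Genes of other cell types were among the lowest ratios of SC300 over Control. Apart from *RT1-A1* and *Ifit3*, the lowest ratios were those of the haemoglobin genes *Hba-a2*, *LOC103694857* and *Hbb*, and of the oligodendrocyte genes *Mal*, *Ppp1r14a* and *Ptgds*. Haemoglobin genes are close copies, and a further row of the files is named *Hba-a2* as well. *Mal*, a protein of myelin, was at 43.5 CPM in Control and 6.62 CPM in SC300, with 89.1% of its Control UMIs in 3 members, and was detected in 4.94% of the Control members and 5.86% of the SC300 members. *Hba-a2* was at 639 CPM in Control and 15.7 CPM in SC300, with 87.5% in 3 members. *Cldn5*, an endothelial junction protein, was higher in SC300, where 3 members held 88.9% of its UMIs, and without the cell with the most its log2 ratio was −0.47. Oligodendrocyte genes summed to 544 CPM in Control and 209 CPM in SC300 members, with *Mbp* the most abundant, astrocyte genes to 466 and 486 CPM, and neuron genes to 20.1 and 18.5 CPM. Without the 6 Control and 3 SC300 members with over 1% of such RNA, the log2 ratio was 0.16 for *Mal* and −2.42 for *Hba-a2*. It stayed at 2.38 for *Cldn5*, −4.76 for *RT1-A1*, −1.79 for *Tsc22d3*, 0.86 for *Atf3*, −1.60 for *Il6*, −1.32 for *Ifi27* and 0.65 for *Hspb1*. In that setting 75 genes were higher and 132 lower in SC300. Of 22 immediate-early genes 1 was then higher and 3 lower, of 11 heat shock genes 2 were higher, of 11 disease-associated genes 2 and of 4 MHC class II genes 2, and the counts of interferon and MHC class I genes were 0 higher and 4 of 9 and 3 of 12 lower.

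**Figure D5:**
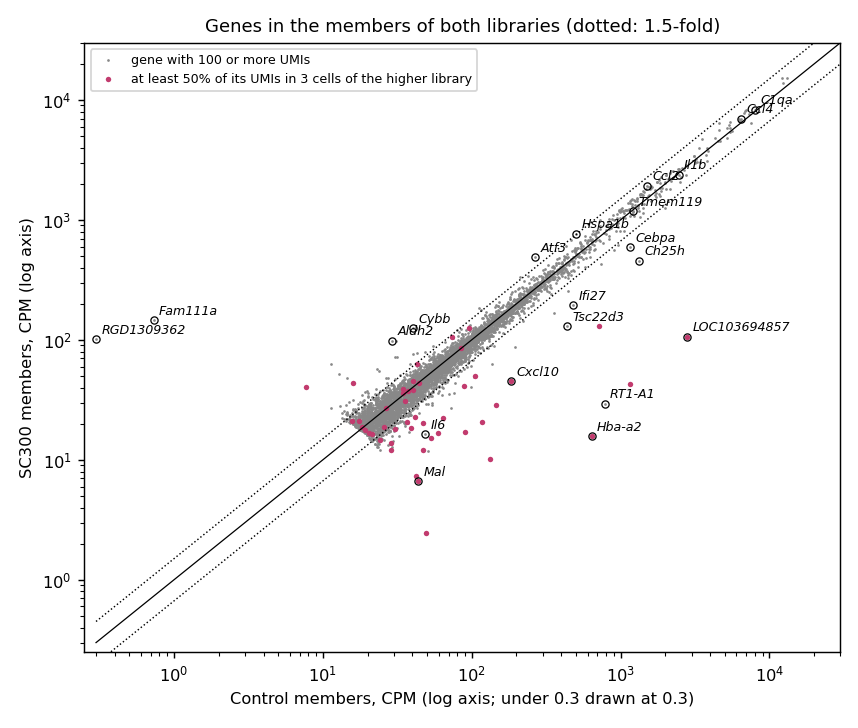
CPM of 4989 genes in the Control members (x axis) and the SC300 members (y axis), both on log scales, with dotted lines at a fold of 1.5. Red dots are genes with at least 50% of their UMIs in 3 cells of the library in which they are higher, such as *Mal*, *Hba-a2* and *Cxcl10*, and circles mark named genes, of which *Tsc22d3*, *RT1-A1* and *Ch25h* lie below the lines and *Fam111a*, *RGD1309362* and *Cybb* above them.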

How the data were processed

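Each library was sequenced from droplets of the 10x Genomics 3′ v3 chemistry. The deposited files hold raw UMI counts per gene and cell, which the authors made with Cell Ranger (3.0.1 in the submitters' processing notes) on an Ensembl rat transcriptome. A gene's UMIs do not scale with its length in this chemistry. The files held 4488 Control and 4524 SC300 barcodes, of which 4296 and 4379 with at least 200 genes were kept, with 51382276 and 56390355 UMIs. No limit was set on mitochondrial UMIs, and doublets called with Scrublet (70 in Control, 71 in SC300, 4 and 6 of them members) were kept. The study's methods give these barcode numbers as the cells analysed and elsewhere a lower number of cells.

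Counts were summed over members or low microglia, divided by their total and compared as log2 ratios with conditional binomial intervals, for genes with at least 100 UMIs. A count of 0 was set to 3 UMIs. Shares have Clopper-Pearson intervals. With 1 library per group no count model such as edgeR was fitted. The computation was tested on simulated counts. Tables were handled in Python 3.11.15 with pandas 2.3.3, intervals came from scipy 1.17.1 (numpy 2.4.6) and doublet calls from scanpy 1.11.5.

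The members, the 24 gene lists and the rules were chosen with earlier results of these data known. The rule for named genes took the genes of the member rule with *Cd83*, the 3 most abundant genes of each list and those with its highest and lowest ratio, the 10 highest and 10 lowest ratios of SC300 over Control, and the 15 highest and 10 lowest of members over low microglia. Other genes were named after their values were seen, among them *Tnf*, *Osm*, *Egr1*, *Hspa1b*, *Dnajb1*, *Sall1*, *Rel*, *Nlrp3*, *Cd9*, *Zfp36* and the genes given at or near 0. Alternatives changed the score limit, the filters on cells and genes, the scaling, the weighting of cells and single cells. Sequences are those of RefSeq (GRCr8), which held no promoter entry for *Ccl3* and *Ccl4*.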

Additional observations from a re-analysis of the deposited data

How the results depend on the processing

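With 1 library per group, precision is limited by the lack of replicates, and for single genes by UMIs held by few cells. With at least 50 UMIs per gene, 203 genes were over 1.5-fold higher and 315 lower in SC300 than in Control members, and with at least 200 UMIs 24 and 60. For members over low microglia, the counts at 50 UMIs were 524 higher and 933 lower in Control and 569 and 958 in SC300, and at 200 UMIs 206 and 269 in Control and 224 and 242 in SC300. With fewer or more genes tested these counts differ by construction. With every cell weighted alike 272 genes were lower in the Control and 280 in the SC300 members, and without doublet calls 311 in the SC300 members, and the cause was not tested.

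Log2 ratios of SC300 over Control past 1.5-fold that changed sign were those of genes of other cell types. Without the cell with the most UMIs of the gene they were 0.017 for *Cldn11*, −0.47 for *Cldn5*, 0.21 for *Mag* and 0.18 for *Mal*. Without doublet calls they were −0.55 for *Cldn5*, 0.33 for *Mag*, 0.20 for *Mal*, 0.090 for *Ppp1r14a* and 0.12 for *Ptgds*. Without cells with over 1% RNA of other types, an alternative chosen after seeing the data, they were 0.33 for *Mag*, 0.16 for *Mal*, 0.12 for *Ppp1r14a* and 0.11 for *Ptgds*. Among smaller ratios, *Ccl7* changed from 0.43 to −0.046 and *Gja1* from −0.067 to 0.50 in that setting. Of the values of single genes under all alternatives, 1430 moved by less than their counting interval, 152 moved further and 13 past 1.5-fold changed sign. In all, 35 of 1595 such values changed sign. Of the counts and shares, 69 kept within their limits and 15 did not. No paired analysis was possible because each group has 1 library and no replicate number.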
